A study of Mus musculus with 24 samples.

Results

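Sterol and fatty acid synthesis in the ileum was followed here through 34 listed genes, of which 33 were measured among 18820 genes on the array. The list holds enzymes and regulators that the sterol regulatory element-binding proteins (SREBPs) are known to drive. It was divided by role into 16 enzymes of sterol synthesis, 13 genes of fatty acid synthesis and 4 regulators and carriers. Acat2 has no probe set of its own and was not analysed here. Every other listed gene was measured above the array medians of 4.92 to 4.98 log2 units on average. That speaks to the signal of the genes and does not test the label of the list.

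Expression was measured in terminal ileum of 24 male C57BL/6OlaHsd mice, 1 Affymetrix Mouse Gene 1.1 ST array per mouse, in 6 groups of 4. Germ-free and conventional (specified pathogen-free) mice received long-chain β2→1-fructan, short-chain β2→1-fructan or water alone by gavage, at 10 mg of fibre per day for 5 days. β2→1-fructans are inulin-type plant fibres that mammals do not digest and gut bacteria ferment. All animals were 8 weeks old when obtained and ate the same purified diet with 10% fat. Germ-free mice came from a university breeding colony and conventional mice from a commercial supplier, so that colonization and source cannot be told apart. In germ-free mice the short-chain fibre was filtered through 0.2 micron and the long-chain fibre irradiated with 25 kGy, which broke down part of its longest chains, whereas conventional mice received both untreated. Effects of chain length and of irradiation cannot be told apart in germ-free mice. Replicates are separate animals.

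SREBP-2 mainly drives the genes that turn acetyl-CoA into cholesterol, and SREBP-1c those that build and desaturate fatty acids. When sterols in the endoplasmic reticulum run low, the precursors of both move to the Golgi and are cut, and the freed fragments enter the nucleus. Insig1 holds the precursors back when sterols are plentiful. In intestine, sterol synthesis serves the renewing crypt epithelium and the assembly of lipoproteins, while fatty acid synthesis is also a main activity of adipocytes, which lie in the mesenteric fat along the gut wall.

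To show the sequence context of the 2 arms, the window around a RefSeq transcript start (250 bases before to 50 after, GRCm38.p6) is printed for 2 genes of each. Capitals mark matches on either strand to the sterol element TCACNCCAC, the CCAAT box bound by NF-Y, the GC box GGGCGG bound by Sp1 and the E-box CACGTG. Hmgcs1 (chr13:119690101-119690400, plus strand) and Idi1 (chr13:8885356-8885655, plus strand) belong to sterol synthesis, and Fasn (chr11:120824498-120824797, minus strand) and Thrsp (chr7:97417501-97417800, minus strand) to fatty acid synthesis.
Hmgcs1: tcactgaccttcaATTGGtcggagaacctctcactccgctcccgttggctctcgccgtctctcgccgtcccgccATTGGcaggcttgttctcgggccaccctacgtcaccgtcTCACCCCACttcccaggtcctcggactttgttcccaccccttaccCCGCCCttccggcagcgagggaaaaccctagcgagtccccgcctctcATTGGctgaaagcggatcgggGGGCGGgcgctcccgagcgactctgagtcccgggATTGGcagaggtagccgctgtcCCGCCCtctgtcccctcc
Idi1: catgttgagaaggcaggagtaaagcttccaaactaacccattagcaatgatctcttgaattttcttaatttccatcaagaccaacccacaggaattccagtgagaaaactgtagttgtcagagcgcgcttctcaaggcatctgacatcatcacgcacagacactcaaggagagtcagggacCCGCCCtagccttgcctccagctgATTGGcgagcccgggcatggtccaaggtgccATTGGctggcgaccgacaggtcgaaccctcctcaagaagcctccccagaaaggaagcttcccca
Fasn: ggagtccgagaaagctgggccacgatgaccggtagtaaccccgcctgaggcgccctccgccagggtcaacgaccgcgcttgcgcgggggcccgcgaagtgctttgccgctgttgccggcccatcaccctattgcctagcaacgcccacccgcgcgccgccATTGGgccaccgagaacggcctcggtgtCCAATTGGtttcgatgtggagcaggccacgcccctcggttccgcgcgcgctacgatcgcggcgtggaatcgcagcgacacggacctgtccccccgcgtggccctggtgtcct
Thrsp: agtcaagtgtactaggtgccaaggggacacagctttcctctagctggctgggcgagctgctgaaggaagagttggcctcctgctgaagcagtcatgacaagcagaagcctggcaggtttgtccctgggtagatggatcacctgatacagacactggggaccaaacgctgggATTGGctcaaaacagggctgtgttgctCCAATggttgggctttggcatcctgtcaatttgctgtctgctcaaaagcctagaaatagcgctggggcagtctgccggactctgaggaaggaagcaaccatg

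RefSeq windows were found for 26 of the 33 measured members, 32 windows in all. Hmgcs1 alone held the sterol element, which was present in 3.12% of the member windows and in 1.24% of all 32851 windows. A CCAAT box was found in 23 of the 26 members, or 75% of their windows, against 37.4% of all windows. The GC box was present in 65.6% of member windows, against 35.7% of all, and the E-box in 15.6%, against 7.15%. In Fasn a pair of CCAAT boxes on opposite strands overlapped. A match describes the letters of a window and not the binding of a factor.

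The arrays were alike in quality, and the labels held in the data. The ileal markers Fabp6 and Slc10a2 were high in every mouse, at 12.38 to 12.80 and 10.74 to 11.42 log2 units. All 9 genes listed as responsive to bacteria, among them Reg3g, were called lower in germ-free mice. The defining adipocyte markers Adipoq and Plin1 ranged from 5.71 to 8.29 and from 5.38 to 7.46 in germ-free mice, and from 4.30 to 6.92 and from 4.80 to 6.00 in conventional mice. The mean of 7 adipocyte markers was 6.04 to 7.86 log2 units in germ-free mice and 5.21 to 6.40 in conventional mice, and the values beside each result show where they moved with it.

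Within the list, colonization went with the widest differences, mostly in fatty acid synthesis. Thrsp, Me1, Scd1 and Fasn were 3.40- to 8.63-fold higher in germ-free mice over all treatments, whereas enzymes of sterol synthesis differed by at most 1.33-fold. The thresholds of the study were used for a call, that is an unadjusted p under 0.01 by limma with a change of more than 1.3-fold. Over all treatments, 13 of 33 members were called higher and none lower, against 2.99% of all genes called higher. At an adjusted p under 0.05, 23 members passed, all higher, against 34% of all genes in either direction. The median member was higher by 0.27 on the log2 scale, against 0.03 for all genes.

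By role, 9 of 13 genes of fatty acid synthesis were called higher, with a median log2 change of 0.80, and all 13 were positive. Of the 16 sterol enzymes, Idi1 and Lss were called higher, 12 were positive and the median log2 change was 0.16. Of the regulators and carriers, Insig1 and Stard4 were called. Under cyclic loess normalization these 4 calls and that of Scd2 fell below the fold threshold, at log2 changes of 0.35 for Idi1, 0.37 for Lss, 0.36 for Insig1, 0.34 for Stard4 and 0.38 for Scd2, which left 8 members called.

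**Figure D1:**
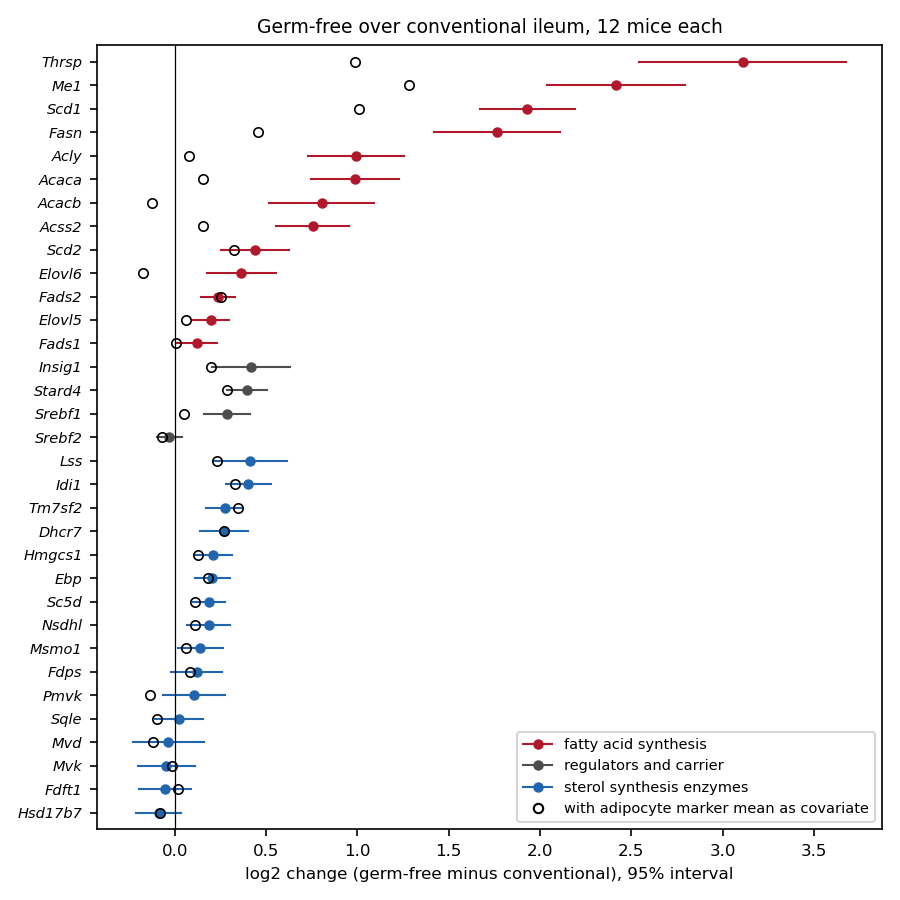
Log2 change of each measured member, germ-free minus conventional mice over the 3 treatments (12 mice each), with 95% intervals from limma, by role. Open circles give the same change when the mean of 7 adipocyte markers was a covariate. Thrsp lies furthest right at 3.11, and with the covariate at 0.99.

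Among the genes of fatty acid synthesis, Thrsp stood furthest apart. It encodes Spot 14, a nuclear protein that goes with lipogenesis in liver and fat. In germ-free mice it measured 9.78, 8.95, 10.00 and 7.22 log2 units on long-chain fructan, 9.95, 9.93, 9.90 and 9.49 on short-chain fructan, and 7.37, 9.91, 9.96 and 8.03 on water. In conventional mice it measured 6.70, 5.75, 6.92 and 6.03 on long-chain fructan, 5.38, 5.66, 5.59 and 6.22 on short-chain fructan, and 6.86, 5.91, 5.99 and 6.17 on water. All 12 germ-free values lay above all 12 conventional values, and the lowest 3 germ-free mice were mouse 4 on long-chain fructan and mice 1 and 4 on water. The log2 change was 3.11 with a standard error of 0.28 (adjusted p = 1.3e-09, limma). On short-chain fructan alone the fold reached 17.2.

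Me1, malic enzyme, supplies NADPH for fatty acid synthesis. In germ-free mice it measured 9.81, 9.23, 10.14 and 8.25 on long-chain fructan, 9.84, 10.15, 10.34 and 9.48 on short-chain fructan, and 8.71, 9.93, 9.89 and 8.87 on water. Its conventional values were 7.26, 6.85, 7.56 and 7.26 on long-chain fructan, 7.61, 6.68, 6.51 and 7.67 on short-chain fructan, and 7.37, 6.97, 7.002 and 6.90 on water. The groups did not overlap, and the log2 change was 2.41 (standard error 0.18, adjusted p = 7.2e-11). A second probe set of Me1 gave means of 9.36 in germ-free and 6.90 in conventional mice, so that both sets showed the difference.

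Scd1, stearoyl-CoA desaturase, puts a double bond into saturated fatty acids. It measured 12.26, 11.63, 12.30 and 11.26 in germ-free mice on long-chain fructan, 12.25, 12.21, 12.20 and 12.004 on short-chain fructan, and 11.47, 12.21, 12.32 and 11.66 on water. Conventional values were 10.60, 9.70, 10.52 and 10.16 on long-chain fructan, 9.04, 9.55, 9.96 and 9.85 on short-chain fructan, and 10.40, 10.16, 10.12 and 10.53 on water. Again the groups did not overlap, with a log2 change of 1.93 (standard error 0.13, adjusted p = 4.0e-12). Its relative Scd2, common in brain and in developing tissue, had a log2 change of 0.44 (adjusted p = 0.00039). Scd2 measured 11.83, 11.75, 11.93 and 11.48 on long-chain fructan, 11.88, 11.75, 11.93 and 11.59 on short-chain fructan, and 11.90, 11.65, 12.01 and 11.76 on water in germ-free mice. In conventional mice it measured 10.57, 10.94, 11.78 and 11.21 on long-chain fructan, 11.43, 11.33, 11.50 and 11.65 on short-chain fructan, and 11.73, 11.24, 11.26 and 11.55 on water, and these overlapped with the germ-free values.

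Fasn, fatty acid synthase, makes palmitate from malonyl-CoA. In germ-free mice it measured 10.35, 9.70, 10.55 and 8.74 on long-chain fructan, 10.31, 10.15, 10.36 and 10.03 on short-chain fructan, and 8.92, 10.33, 10.50 and 9.21 on water. Conventional mice had 8.35, 7.86, 8.49 and 8.12 on long-chain fructan, 7.79, 8.19, 8.04 and 8.24 on short-chain fructan, and 8.44, 8.04, 8.20 and 8.22 on water. No conventional value reached the lowest germ-free one, and the log2 change was 1.76 (standard error 0.17, adjusted p = 4.3e-09).

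The carboxylases and the suppliers of acetyl-CoA rose with them to a smaller extent. Acaca, which makes malonyl-CoA for synthesis, measured 9.09, 8.64, 9.31 and 8.05 in germ-free mice on long-chain fructan, 9.21, 8.96, 9.17 and 8.82 on short-chain fructan, and 8.39, 9.15, 9.32 and 8.32 on water. In conventional mice Acaca measured 7.71, 7.66, 8.14 and 7.76 on long-chain fructan, 7.77, 7.99, 7.93 and 7.91 on short-chain fructan, and 8.04, 7.77, 7.89 and 8.01 on water. Its log2 change was 0.99 (adjusted p = 1.7e-07), and only germ-free mouse 4 on long-chain fructan fell into the conventional range. Acacb, the mitochondrial carboxylase whose product restrains fatty acid oxidation, changed by 0.80 (adjusted p = 4.9e-05). It measured 6.61, 5.92, 6.89 and 5.60 in germ-free mice on long-chain fructan, 6.57, 6.67, 6.83 and 6.44 on short-chain fructan, and 5.58, 6.84, 6.75 and 5.77 on water. Conventional values of Acacb were 5.67, 5.93, 5.54 and 5.47 on long-chain fructan, 5.33, 5.80, 5.81 and 5.19 on short-chain fructan, and 5.40, 5.58, 5.43 and 5.65 on water. In all, 4 germ-free mice lay within the conventional range of Acacb, and the other 8 above it.

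Acly, which splits citrate into cytosolic acetyl-CoA, had a log2 change of 0.99 (adjusted p = 6.5e-07). In germ-free mice it measured 9.73, 9.29, 9.84 and 8.39 on long-chain fructan, 9.77, 9.83, 10.05 and 9.45 on short-chain fructan, and 8.80, 9.64, 9.82 and 8.80 on water. In conventional mice the values were 8.41, 8.36, 8.66 and 8.42 on long-chain fructan, 8.38, 8.48, 8.35 and 8.63 on short-chain fructan, and 8.51, 8.39, 8.47 and 8.43 on water. Germ-free mouse 4 on long-chain fructan was again the only one within the conventional range. Acss2, which makes acetyl-CoA from acetate, changed by 0.76 (adjusted p = 7.2e-07). It measured 8.14, 7.92, 8.43 and 7.33 in germ-free mice on long-chain fructan, 8.29, 8.24, 8.56 and 8.11 on short-chain fructan, and 7.89, 8.26, 8.54 and 7.65 on water. Its conventional values were 7.10, 7.01, 7.40 and 7.32 on long-chain fructan, 7.50, 7.44, 7.22 and 7.48 on short-chain fructan, and 7.56, 7.34, 7.47 and 7.45 on water, so that mouse 4 overlapped here too.

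The elongases and front-end desaturases differed less. Elovl6, which extends palmitate, ranged from 8.84 to 9.76 in germ-free mice and from 8.77 to 9.35 in conventional mice, with a log2 change of 0.37 (adjusted p = 0.0028). Fads2 and Elovl5, of polyunsaturated fatty acid synthesis, changed by 0.24 (adjusted p = 0.00013) and 0.20 (adjusted p = 0.0025). Fads1 changed by 0.12 and did not pass (adjusted p = 0.076). None of these 4 reached the fold threshold.

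Of 23 further genes of fatty acid and triglyceride synthesis, 10 were called higher over all treatments and none lower. The log2 change was positive for 20 and negative for 3, with a median of 0.33. Acsl5, an acyl-CoA synthetase of the intestine, rose 1.40-fold, and Pgd, an NADPH-making enzyme of the pentose phosphate path, 1.42-fold. Pnpla3, a lipid droplet protein that SREBP-1c drives, rose 2.86-fold, and Hsd17b12, of chain elongation, 1.31-fold.

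**Figure D2:**
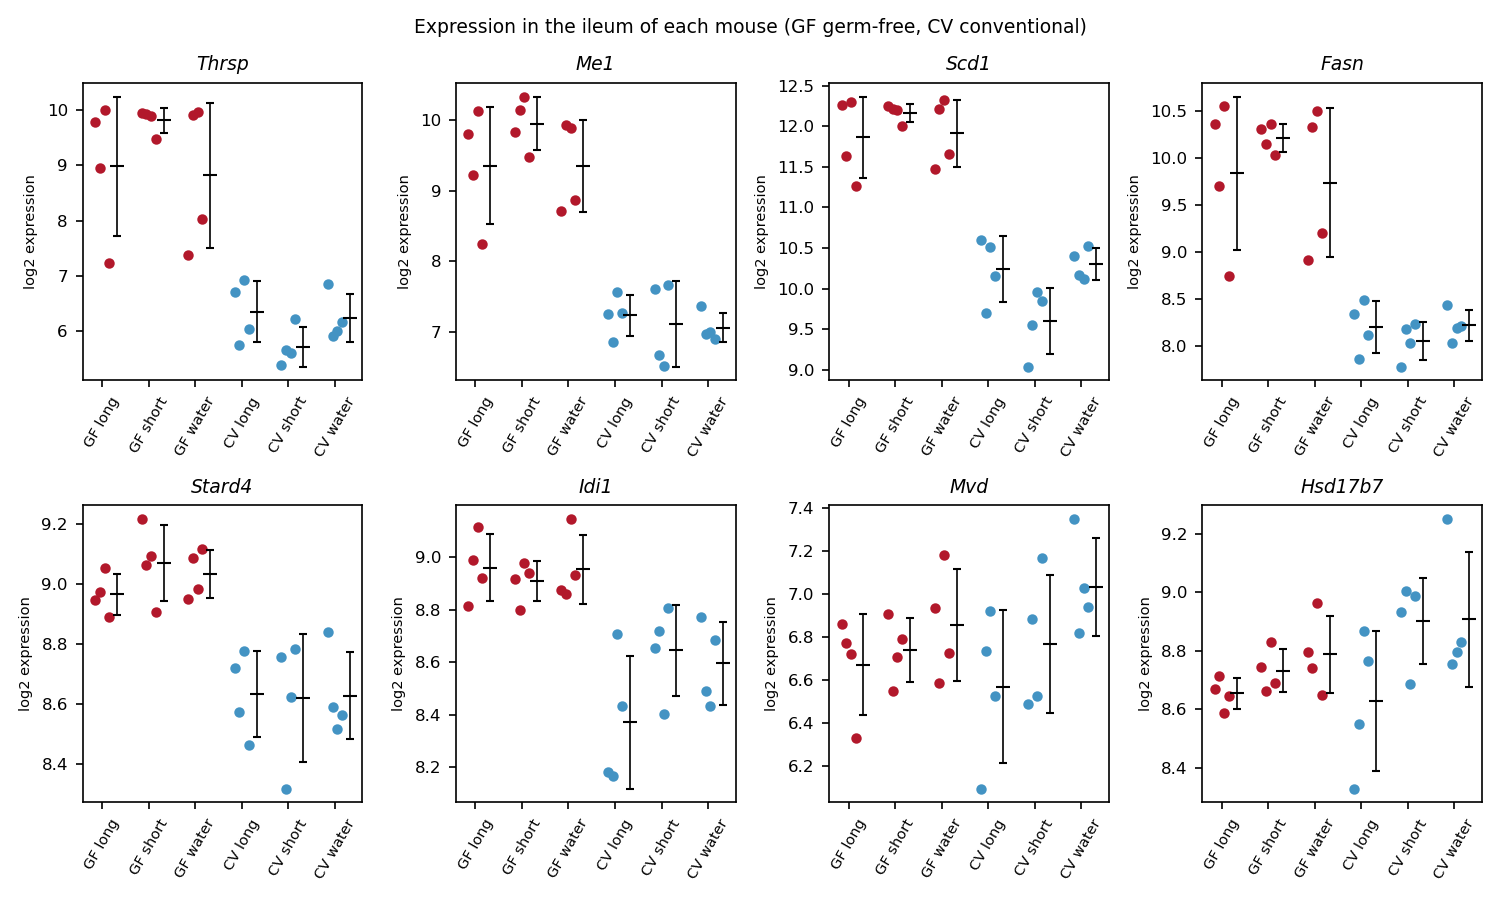
Log2 expression of 8 members in each mouse (points), with the mean and SD of the 4 mice of each group beside them, germ-free (GF) left of conventional (CV) mice. The top row shows no overlap between germ-free and conventional mice for Thrsp, Me1, Scd1 and Fasn, and the bottom row shows smaller differences for Stard4, Idi1, Mvd and Hsd17b7.

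Markers of adipocytes moved with this arm. All 7 measured adipocyte markers were called higher in germ-free mice, with a median log2 change of 1.41, and Adipoq rose 3.67-fold. The mean of the 7 markers was 7.58, 6.79, 7.86 and 6.30 in germ-free mice on long-chain fructan, 7.58, 7.53, 7.74 and 7.28 on short-chain fructan, and 6.04, 7.45, 7.86 and 6.36 on water. In conventional mice it was 6.40, 5.37, 5.87 and 5.52 on long-chain fructan, 5.21, 5.33, 5.72 and 5.58 on short-chain fructan, and 5.99, 5.93, 5.93 and 5.93 on water. The 4 germ-free mice lowest in this mean were the same 4 that were lowest in Fasn. In whole tissue, more cells of a type and more RNA per cell cannot be told apart.

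Across the 12 germ-free mice, Fasn followed the adipocyte mean with r = 0.98 and rho = 0.95 (adjusted permutation p = 0.00026 and 0.00066, over 66 relations). It kept r = 0.98 without the 2 mice farthest from the median and within the treatment groups. Acacb (r = 0.97, rho = 0.84, adjusted permutation p = 0.00026 and 0.0081) and Thrsp (r = 0.97, rho = 0.91, adjusted permutation p = 0.00026 and 0.0016) behaved alike. By Pearson's r, 9 members passed in germ-free mice (10 by rho, with Fads1 added), each a gene of fatty acid synthesis, and r of the sterol enzymes lay between -0.19 and 0.52. Across the 12 conventional mice, 1 member passed by Pearson's r, Scd1 (r = 0.87, rho = 0.88, adjusted permutation p = 0.0018 and 0.0031), with r = 0.84 without the 2 farthest mice.

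With the adipocyte mean as a covariate, an alternative chosen after the data were seen, Me1 (1.28), Scd1 (1.01), Thrsp (0.99) and Fasn (0.46) remained called over all treatments, and the other 9 were not. That fit called 8.96% of all genes over all treatments, in either direction. Acacb then had the opposite sign, at -0.12. Germ-free mice 1 and 4 on water and mouse 4 on long-chain fructan had adipocyte means of 6.04, 6.36 and 6.30, inside the conventional range of 5.21 to 6.40. Conventional mouse 1 on long-chain fructan alone set the upper end of that range, and the next highest conventional mouse had 5.99. Of the 7 markers, only Cidec lay above the conventional maximum of 8.00 in all of these 3 germ-free mice (8.56, 8.15 and 8.18). Their Adipoq (5.71, 6.32 and 6.51) lay below the conventional maximum of 6.92. Fabp4 (7.11, 7.78 and 7.67) and Lep (3.83, 3.36 and 3.80) also lay below theirs, of 7.95 and 4.29. The remaining markers lay on both sides of theirs. They were Plin1 (5.38, 5.85 and 6.005, against 6.002), Retn (7.75, 8.58 and 7.89, against 8.08) and Cidea (3.93, 4.46 and 4.03, against 4.26). Like the other germ-free mice, these 3 mice exceeded every conventional mouse in Fasn, Me1, Scd1 and Thrsp. That follows from the lack of overlap given above and is no separate test. All 3 lay within the conventional range of Acacb, and mouse 4 on long-chain fructan also within that of Acaca, Acly and Acss2. The covariate itself differs between germ-free and conventional mice, and the part of adipose tissue in the difference was not tested further.

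**Figure D3:**
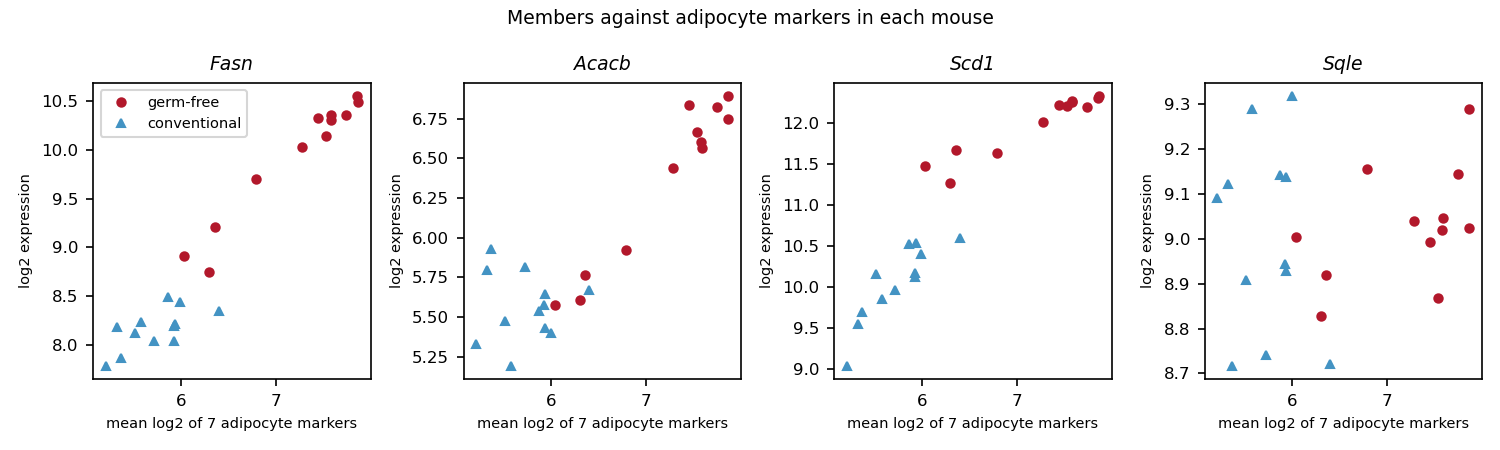
Log2 expression of Fasn, Acacb, Scd1 and Sqle against the mean log2 level of 7 adipocyte markers, 1 point per mouse, germ-free (circles) and conventional (triangles). Fasn, Acacb and Scd1 climb with the markers among germ-free mice, with r of 0.98, 0.97 and 0.96, while Sqle has r = 0.46.

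Other tissue markers also differed. Over all treatments, 5.22% of all genes were called lower in germ-free mice and 2.99% higher. Of 6 smooth muscle genes 4 were called lower, Myh11, Tagln, Des and Cnn1, with a median log2 change of -0.45 over the 6. The mean of the 6 per mouse ranged from 9.38 to 10.33 in germ-free mice and from 10.37 to 10.65 in conventional mice. Crypt proliferation genes had a median log2 change of 0.23, with all 8 positive and 1 of 8 called higher. At an adjusted p under 0.05 by limma, 6 of these 8 passed, against 34% of all genes. Of 9 markers of proximal enterocytes 4 were called higher, among them Fabp1 (4.24-fold). Of 4 hepatocyte markers 1 was called higher, Apoc3, which enterocytes also express, and none of 6 pancreatic acinar markers was called. Of 6 macrophage markers Cd163 was called higher and Csf1r lower, and 2 of 5 B cell markers, Cd79a and Cd79b, were called lower. None of 8 ileal enterocyte markers was called, with log2 changes from -0.32 to 0.15. However, 4 of them passed at an adjusted p under 0.05 by limma, against 34% of all genes. The part of these markers in the results was not tested.

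Sterol synthesis differed less between germ-free and conventional mice. Idi1, which isomerizes isopentenyl diphosphate, measured 8.81, 8.99, 9.12 and 8.92 in germ-free mice on long-chain fructan, 8.92, 8.80, 8.98 and 8.94 on short-chain fructan, and 8.88, 8.86, 9.15 and 8.93 on water. In conventional mice it measured 8.18, 8.17, 8.71 and 8.43 on long-chain fructan, 8.65, 8.72, 8.40 and 8.81 on short-chain fructan, and 8.77, 8.49, 8.44 and 8.68 on water. Only conventional mouse 4 on short-chain fructan reached the germ-free values, and the log2 change was 0.40 (standard error 0.06, adjusted p = 5.8e-06). A second Idi1 probe set had means of 8.91 and 8.51 in germ-free and conventional mice.

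Lss, lanosterol synthase, changed by 0.41 (adjusted p = 0.0017). It measured 8.30, 8.42, 8.54 and 7.96 in germ-free mice on long-chain fructan, 8.37, 8.11, 8.42 and 8.36 on short-chain fructan, and 8.47, 8.27, 8.80 and 8.21 on water. Conventional values were 7.29, 7.45, 8.21 and 7.84 on long-chain fructan, 8.03, 8.19, 7.65 and 8.28 on short-chain fructan, and 8.44, 7.78, 7.94 and 8.17 on water, with overlap in each treatment. The call of Lss was lost without conventional mouse 1 on long-chain fructan (0.37), conventional mouse 3 on short-chain fructan (0.37) or germ-free mouse 3 on water (0.37), and that of Idi1 without conventional mouse 3 on short-chain fructan (0.38).

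A further 6 sterol enzymes passed the adjusted threshold below 1.3-fold, namely Tm7sf2, Ebp, Sc5d, Hmgcs1, Dhcr7 and Nsdhl. Their log2 changes lay between 0.19 and 0.27. With Idi1 and Lss, 8 of 16 sterol enzymes passed, against 34% of all genes in either direction. Hmgcs1, which makes the precursor of mevalonate, ranged from 10.06 to 10.53 in germ-free mice and from 9.80 to 10.28 in conventional mice. The remaining 8 did not pass, including Sqle, which epoxidizes squalene and is a point of control of the path (log2 change 0.02, 95% interval from -0.11 to 0.15). Of 5 further sterol synthesis genes, 1 was called higher, Lbr, a sterol reductase of the inner nuclear membrane (1.301-fold).

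Of the regulators, Stard4 and Insig1 were called. Stard4 carries cholesterol through the cytosol. It measured 8.95, 8.97, 9.05 and 8.89 in germ-free mice on long-chain fructan, 9.22, 9.06, 9.09 and 8.91 on short-chain fructan, and 8.95, 9.09, 8.98 and 9.12 on water. Conventional values of Stard4 were 8.72, 8.57, 8.78 and 8.46 on long-chain fructan, 8.76, 8.32, 8.63 and 8.78 on short-chain fructan, and 8.84, 8.59, 8.52 and 8.56 on water. Every germ-free value exceeded every conventional one, at a log2 change of 0.40 (standard error 0.05, adjusted p = 9.8e-07). Without conventional mouse 2 on short-chain fructan (0.36) or conventional mouse 4 on long-chain fructan (0.38) the change fell below the fold threshold. In all, 5 of 33 members separated the 12 germ-free from the 12 conventional mice upward, against 1.31% of all genes.

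Insig1 changed by 0.42 (adjusted p = 0.0024). In germ-free mice it measured 9.33, 9.72, 9.69 and 8.99 on long-chain fructan, 9.72, 9.51, 9.83 and 9.40 on short-chain fructan, and 9.75, 9.30, 10.20 and 9.39 on water. In conventional mice it measured 8.51, 8.92, 9.31 and 8.94 on long-chain fructan, 9.34, 9.25, 9.22 and 9.34 on short-chain fructan, and 9.73, 9.10, 9.004 and 9.15 on water, and the groups overlapped. Leaving out conventional mouse 1 on long-chain fructan (0.37) or germ-free mouse 3 on water (0.36) ended its call.

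The genes of the SREBPs themselves differed little. Srebf1 changed by 0.29 (adjusted p = 0.00048, 1.22-fold). Srebf2 changed by -0.03 (95% interval from -0.11 to 0.05), with values from 9.001 to 9.21 in germ-free mice and from 9.02 to 9.30 in conventional mice. Among 7 further genes of sterol sensing and SREBP processing, 1 was called, Nr1h3, the oxysterol receptor LXR alpha that induces Srebf1 (1.46-fold higher). Of 11 genes of sterol uptake, esterification and efflux, 2 were called lower, against 5.22% of all genes. They were Abcg8, a subunit of the sterol exporter of the brush border (1.32-fold), and Npc1l1, the cholesterol importer (1.31-fold).

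The difference held within each treatment. On long-chain fructan 12 members were called higher, against 3.43% of all genes, and 14 passed at an adjusted p under 0.05, against 15.9% of all genes. Short-chain fructan gave 10 called, against 4.29% of all genes, and 14 adjusted, against 15%. Water gave 9 called, against 2.77%, and 14 adjusted, against 13.5%. The median member was higher by 0.26, 0.26 and 0.25 on long-chain fructan, short-chain fructan and water, against 0.03, 0.03 and 0.01 for all genes. Adipocyte markers were called for 6, 6 and 5 of 7, at median log2 changes of 1.31, 1.90 and 0.98. The comparisons over all treatments and within a treatment share their mice.

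In every treatment the same 7 members were called, namely Thrsp, Me1, Scd1, Fasn, Acly, Acaca and Acss2. With the adipocyte covariate Acly, Acaca and Acss2 lost their calls in every treatment, and Acaca was at -0.032 on short-chain fructan. Fasn then lost its call on long-chain (0.43) and short-chain fructan (0.30), and Thrsp on long-chain fructan (0.70). Sterol enzymes were called mostly on long-chain fructan, with Idi1 (0.59, adjusted p = 0.00023), Lss (0.61, adjusted p = 0.015) and Dhcr7 (0.38, adjusted p = 0.020). Dhcr7 makes the last reduction to cholesterol. It measured 8.69, 8.42, 8.65 and 8.66 in germ-free mice and 8.09, 8.01, 8.68 and 8.12 in conventional mice on long-chain fructan, and conventional mouse 3 overlapped. The call of Insig1 on long-chain fructan was lost with 1 prior, with cyclic loess (0.46) and without dim genes, and that of Dhcr7 with cyclic loess (0.34). Both were also lost in 6 of 8 fits that left out 1 mouse, with log2 changes over the 8 fits of 0.31 to 0.53 for Dhcr7 and 0.38 to 0.66 for Insig1. Those mice were conventional mice 1, 2 and 4 for both genes, with germ-free mice 1, 3 and 4 for Dhcr7 and germ-free mice 1, 2 and 3 for Insig1. Lss was lost without conventional mouse 1 (0.47).

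On short-chain fructan Tm7sf2, a sterol reductase, was called (0.43, adjusted p = 0.00082). Its values there were 8.39, 8.40, 8.45 and 8.29 in germ-free mice, against 7.92, 7.95, 7.97 and 7.97 in conventional mice, with no overlap (exact permutation p = 0.029, the smallest that 4 against 4 mice allow). On water the call of Acacb (0.72) was lost in 5 of 8 fits that left out 1 mouse, namely conventional mouse 1, 2 or 3 or germ-free mouse 2 or 3 (0.52 to 0.94 over all 8). Stard4 lost its call on water without conventional mouse 3 (0.37) and on short-chain fructan without conventional mouse 2 (0.35).

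After long-chain fructan in conventional mice, all 16 sterol enzymes had negative log2 changes against water, of which 1 was called. Their median log2 change was -0.20, and their means per mouse overlapped between the groups, while genes of fatty acid synthesis had a median of -0.02. Over the whole list 27 of 33 members, or 81.8%, were negative, against 55.7% of all genes, and the medians were -0.13 and -0.02. One member was called, Mvd, lower by 1.38-fold, against 0.313% of all genes called. At an unadjusted p under 0.05, 9 members passed, all of them sterol enzymes, against 5.67% of all genes. No gene of the 18820 passed at an adjusted p under 0.05 (limma).

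Mvd, which makes isopentenyl diphosphate, measured 6.09, 6.73, 6.92 and 6.53 on long-chain fructan and 7.35, 6.82, 7.03 and 6.94 on water. One treated mouse reached the water values, mouse 3 at 6.92, which exceeded water mouse 2. The log2 change was -0.46 (95% interval from -0.80 to -0.13, unadjusted p = 0.0089 and adjusted p = 0.86 by limma, exact permutation p = 0.057). It was also not called with 1 prior for all genes, with arrays of one colonization status, with cyclic loess (-0.43), without dim genes or with the replicate block. Its call was lost in 5 of 8 fits that left out 1 mouse, without water mouse 1 (-0.36), 3 (-0.47) or 4 (-0.50) or without long-chain mouse 1 (-0.31) or 4 (-0.45).

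Hsd17b7, a ketoreductase of the demethylation of lanosterol, measured 8.33, 8.55, 8.87 and 8.76 on long-chain fructan and 9.25, 8.76, 8.79 and 8.83 on water. Its log2 change was -0.28 (unadjusted p = 0.012 by limma, exact permutation p = 0.23). The values overlapped, and water mouse 1 was the highest of all 24 mice. Lss measured 7.29, 7.45, 8.21 and 7.84 on long-chain fructan and 8.44, 7.78, 7.94 and 8.17 on water, a log2 change of -0.38.

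The mean of the 16 sterol enzymes per mouse was 8.13, 8.23, 8.64 and 8.45 on long-chain fructan and 8.81, 8.44, 8.49 and 8.55 on water. Long-chain mice 1 and 2 lay below every water mouse, mouse 3 lay above 3 of them, and mouse 4 lay between mice 2 and 3 of the water group. Without long-chain mouse 3, 4 members were called, and without water mouse 1, none. The median over the list stayed negative in all 8 such fits (-0.21 to -0.06). Adipocyte markers had a median log2 change of -0.05 here, with none called, and smooth muscle genes had a median of 0.09. Of 9 markers of proximal enterocytes 1 was called lower, the sugar transporter Slc2a2 (2.69-fold), and its part was not tested.

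**Figure D4:**
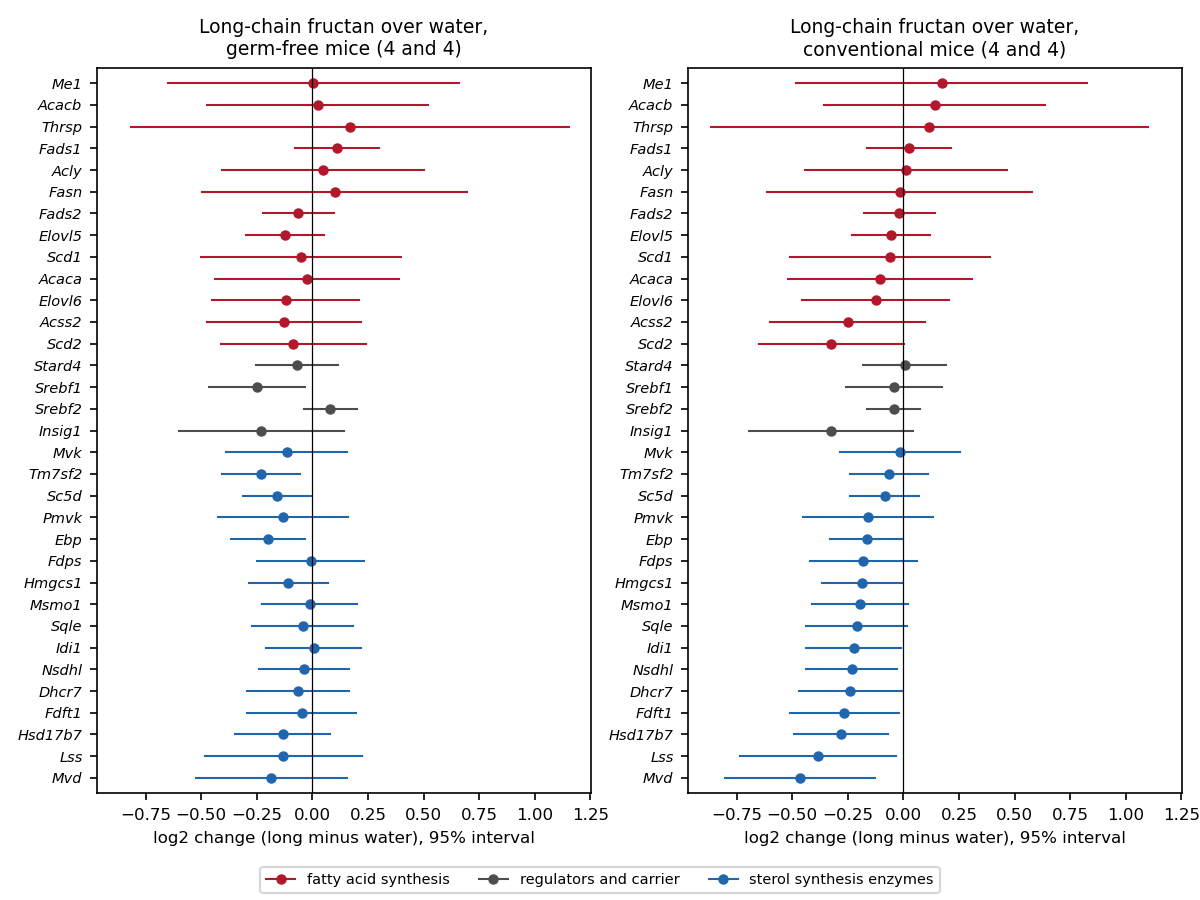
Log2 change of each measured member, long-chain fructan minus water, in germ-free (left) and conventional (right) mice, with 95% intervals from limma (4 mice per group). In conventional mice all 16 sterol enzymes lie left of 0, with Mvd at -0.46, and in germ-free mice 15 of 16 do, with a median of -0.11.

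The same comparison in germ-free mice called no member by limma or by the intensity-based moderated test, against 0.855% of all genes by limma. At an unadjusted p under 0.05, 4 members passed, against 8.74% of all genes. Of 16 sterol enzymes 15 were negative, against 49.1% of all genes, with a median log2 change of -0.11. The list had a median of -0.06. The lowest p belonged to Tm7sf2, at 8.23, 8.27, 8.13 and 8.15 on long-chain fructan against 8.57, 8.47, 8.36 and 8.30 on water (log2 change -0.23, unadjusted p = 0.012 by limma). Its groups did not overlap. Ebp, which shifts a double bond of the sterol ring, followed at 8.39, 8.15, 8.02 and 8.08 on long-chain fructan against 8.31, 8.41, 8.28 and 8.45 on water (log2 change -0.20, unadjusted p = 0.019 by limma). Beside the list, Insig2, a second anchor of the SREBP precursors, was called lower (1.33-fold), as was Abcg8 (1.33-fold), out of 7 and 11 genes. Of 5 B cell markers 3 were called higher, and their part was not tested.

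Whether germ-free and conventional mice responded unlike to long-chain fructan was tested as an interaction. No member was called by either test (0.531% of all genes were by limma), none passed at an unadjusted p under 0.05 (3.74% of all genes did), and the median was 0.08, against 0.01 for all genes. Idi1 had the lowest p, with a difference of 0.23 (95% interval from -0.07 to 0.53). Srebf2 was next at 0.13, with values of 9.21, 9.17, 9.13 and 9.20 in germ-free mice on long-chain fructan and 9.001, 9.08, 9.19 and 9.11 on water. In conventional mice Srebf2 measured 9.07, 9.02, 9.18 and 9.19 on long-chain fructan and 9.30, 9.09, 9.13 and 9.11 on water. The response of the sterol enzymes was therefore not shown to differ between germ-free and conventional mice.

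Short-chain fructan in conventional mice left the list as a whole near 0, with a median log2 change of -0.02 for members and for all genes. One member was called, Scd1, lower by 1.63-fold, against 0.409% of all genes called. Scd1 measured 9.04, 9.55, 9.96 and 9.85 on short-chain fructan and 10.40, 10.16, 10.12 and 10.53 on water. Every treated mouse lay below every water mouse, with a log2 change of -0.70 (95% interval from -1.15 to -0.25, unadjusted p = 0.0034 and adjusted p = 0.84 by limma, exact permutation p = 0.029, the smallest that 4 against 4 mice allow). Its call was lost without short-chain mouse 1 (-0.52) or water mouse 4 (-0.63).

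Tm7sf2 was next, at 7.92, 7.95, 7.97 and 7.97 on short-chain fructan and 8.31, 8.10, 8.08 and 8.09 on water (log2 change -0.19, unadjusted p = 0.031 by limma). The values did not overlap. Adipocyte markers had a median log2 change of -0.42 in this comparison, with all 7 negative and none called. Of 9 markers of proximal enterocytes 1 was called lower, Slc2a2 (1.95-fold), and all 9 were negative. Of 9 genes responsive to bacteria 3 were called higher, Fut2, Retnlb and Duox2, and the part of these lists was not tested. With the adipocyte mean as a covariate Scd1 remained called, at -0.40.

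In germ-free mice short-chain fructan called no member by either test, against 0.579% of all genes by limma, and 2 members passed at an unadjusted p under 0.05, against 5.71% of all genes. Acly was the first, at 9.77, 9.83, 10.05 and 9.45 on short-chain fructan against 8.80, 9.64, 9.82 and 8.80 on water, with a log2 change of 0.51. Thrsp was the other, with a log2 change of 1.00 and values of 9.95, 9.93, 9.90 and 9.49 against 7.37, 9.91, 9.96 and 8.03. In the water group 2 mice equalled the treated ones and 2 lay far below, the same 2 that were low in adipocyte markers, which had a median log2 change of 0.62 here. Of 13 genes of fatty acid synthesis 12 were positive, with a median of 0.25. Of 16 sterol enzymes 15 were negative, with a median of -0.05, and 46.1% of all genes were negative. Without germ-free water mouse 3, 2 members were called.

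The change of Scd1 after short-chain fructan differed between germ-free and conventional mice by 0.95 (95% interval from 0.32 to 1.59, unadjusted p = 0.0047 and adjusted p = 0.90 by limma). It was the 1 member called in this interaction, against 0.707% of all genes. At an unadjusted p under 0.05 by limma, 2 members passed, against 5.45% of all genes. Of 13 genes of fatty acid synthesis 11 had positive interaction values, with a median of 0.27. The highest of them, at 1.52, exceeded that of Scd1 but was not called. Of all genes, 42.5% had negative interaction values. In germ-free mice Scd1 changed by 0.25, and in conventional mice by -0.70. The call was lost without conventional mouse 4 on water (0.88), conventional mouse 1 on short-chain fructan (0.77), or germ-free mice 1 (0.80) or 4 (0.87) on water, and with the adipocyte mean as a covariate the difference was 0.26. Adipocyte markers had a median interaction of 0.90, and 2 of 7, Adipoq and Retn, were called. Of other lists Duox2 and Fut2, responsive to bacteria, and the acinar gene Cela1 were called, with lower interaction values.

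Long-chain against short-chain fructan in conventional mice called 1 member, Scd1, higher by 1.56-fold, against 0.213% of all genes called. It measured 10.60, 9.70, 10.52 and 10.16 on long-chain fructan against 9.04, 9.55, 9.96 and 9.85 on short-chain fructan, with overlap (log2 change 0.64, unadjusted p = 0.0067 by limma, exact permutation p = 0.086). Its call was lost without long-chain mouse 1 (0.52) or 3 (0.55) or short-chain mouse 1 (0.46) or 2 (0.63). Of 16 sterol enzymes 15 were negative, against 49.4% of all genes, with a median log2 change of -0.16. Hsd17b7 was next in order of p, at -0.28 (8.33, 8.55, 8.87 and 8.76 against 8.93, 9.01, 8.69 and 8.99). The comparison shares its long-chain mice with that against water. Without long-chain mouse 3, 3 members were called.

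In germ-free mice the chain lengths called no member by either test, against 1.41% of all genes by limma, and 2 passed at an unadjusted p under 0.05, against 12.7% of all genes. Those were Tm7sf2 (-0.19), at 8.23, 8.27, 8.13 and 8.15 on long-chain against 8.39, 8.40, 8.45 and 8.29 on short-chain fructan, and Acly (-0.46). All 13 genes of fatty acid synthesis were negative, against 53.4% of all genes, with a median log2 change of -0.30. Adipocyte markers had a median of -0.45. Leaving out germ-free long-chain mouse 3 gave 2 called members. Beside the list, Dgat2, which makes triglyceride, was called lower (1.35-fold) among 23 genes, and Idi2, a relative of Idi1, higher (1.33-fold) among 5. Of 5 B cell markers 2 were called higher.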

How the data were processed

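The deposited values are log2 expression values that the authors made by robust multiarray average (RMA) from 24 arrays, 1 per mouse, which quantile-normalizes arrays and so removes any shift common to all genes. The number of arrays limits the precision, and depth does not apply. Of 35556 probe sets, 21218 carry 1 symbol, and the set of highest mean was taken where a gene had more (1386 genes), leaving 18820 genes. The methods name regrouped probe sets, whereas the deposited numbers are the manufacturer's. Each gene was fitted with limma 3.58.1 in R 4.3.3 over 6 group means with a mean-dependent prior (eBayes with trend), tested on simulated data, and p-values were adjusted over all genes (Benjamini-Hochberg). Single members also had exact permutation tests. Values of every mouse are given for members called in any of 12 comparisons and for the 2 with the smallest p in each. Other lists are given by counts. Only called genes and defining markers of them are named, at most 4 per list and comparison except for the adipocyte markers. The members and lists were chosen with earlier results of these data known. Promoter windows and positions are RefSeq's, on GRCm38.p6. Alternatives were other priors, arrays, normalization, weights, probe set means, a filter on dim genes, a replicate block, leaving out each mouse and an adipocyte covariate. Some listed genes were not analysed here for lack of an unshared probe set.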

Additional observations from a re-analysis of the deposited data

Results flagged for a closer look

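In groups of 4 mice, the highest or lowest mouse stood apart from the other 3 by more than Dixon's limit in 9 of 198 tests of a member in a group, and chance gives about 1 in 20. Of the 9, 4 fell on conventional mouse 1 on water, which was high in Mvk (6.86, against 6.47 to 6.54 in the others), Pmvk (8.07, against 7.57 to 7.65), Tm7sf2 (8.31, against 8.08 to 8.10) and Hsd17b7 (9.25, against 8.76 to 8.83). Conventional mouse 3 on long-chain fructan was high in Ebp (8.14, against 7.94 to 7.96) and Dhcr7 (8.68, against 8.01 to 8.12). Both mice belong to the comparison of long-chain fructan with water in conventional mice. Germ-free mouse 4 on long-chain fructan was low in Pmvk (7.48, against 7.81 to 7.83), and germ-free mouse 2 on long-chain fructan was low in Dhcr7 (8.42, against 8.65 to 8.69). Thrsp was low in germ-free mouse 4 on short-chain fructan (9.49, against 9.90 to 9.95).

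Of 66 interactions tested over the members, 1 was called. The change of Scd1 after short-chain fructan was higher in germ-free than in conventional mice by 0.95 on the log2 scale (unadjusted p = 0.0047, adjusted p = 0.90 by limma), which did not pass the correction.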

How the results depend on the processing

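Counts of called members in comparisons of germ-free with conventional mice depended most on 2 settings, relative to the main count. Cyclic loess gave 8 over all treatments (without Idi1, Lss, Insig1, Stard4 and Scd2), and the adipocyte covariate gave 4, 4, 3 and 4 on water, short-chain fructan, long-chain fructan and over all, with a median of 0.040 on short-chain fructan. In the same order, the covariate fit called 8.4%, 5.96%, 8.99% and 8.96% of all genes, in either direction. Under that covariate Acaca on short-chain fructan was -0.032, and Acacb was -0.22 there and -0.12 over all treatments.

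The single call after long-chain fructan in conventional mice was lost (0 members) with 1 prior for all genes, with arrays of one colonization status, with cyclic loess, without dim genes, with the replicate block and with the covariate. With 1 prior, long-chain against short-chain fructan in conventional mice called 0. Array weights gave 1 after short-chain fructan in germ-free mice and 2 in the interaction for short-chain fructan, where the covariate gave 0.

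Leaving out 1 mouse moved the called members to 0 to 4 for long-chain fructan against water, 0 to 1 for short-chain fructan against water and 0 to 3 for long-chain against short-chain fructan in conventional mice. In germ-free mice it gave 0 to 2 for short-chain fructan and for long-chain against short-chain fructan, and 0 to 2 for the interaction. For germ-free against conventional mice it gave 7 to 12 on water (9 in the main fit) and 9 to 12 on short-chain fructan (10). On long-chain fructan it gave 9 to 15 (12 in the main fit), and over all treatments 11 to 14 (13). Replicate numbers did not pair the mice, since 7 of 60 same-numbered pairs correlated above 0.1, and the replicate block (0 members after long-chain fructan in conventional mice) changed no other call. Comparisons of 4 with 4 mice bound small changes loosely.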
